A study of Mus musculus with 10 samples.

Results

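The genes described here are 10 enzymes and regulators of fatty acid and triglyceride synthesis, Srebf1, Mlxipl, Fasn, Acaca, Acacb, Acly, Me1, Pnpla3, Gpam and Dgat2, chosen by name from the gene symbols of the array, older synonyms included. All 10 were among the 18934 genes that passed the filter on dim probes. They were represented by 20 probes, 18 of which passed that filter. RNA was measured on 2-colour arrays in livers of 5 mice labelled GCGR ko/ko (KO; livers 1 and 5 male, livers 2, 3 and 4 female) and 5 mice labelled wt/wt (WT; livers 1, 2 and 5 male, livers 3 and 4 female). Gcgr encodes the receptor for glucagon. The label gives the genotype of the mouse with no tissue-specific driver, so effects within the liver and effects from elsewhere in the body cannot be told apart. Strain, age, feeding state and littermate status are not given in the sources used here. The series' design text speaks of mice, and each liver was taken as 1 mouse. Values are on a log2 scale, Cy5 signal from the liver sample over Cy3 signal from a commercial pool of mouse RNA, so they compare livers for 1 gene and not genes with each other. In RNA from whole liver, fewer cells of a type and less RNA per cell cannot be told apart.

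Fatty acid synthesis turns cytosolic citrate into palmitate. ATP citrate lyase (Acly) releases acetyl-CoA from citrate, acetyl-CoA carboxylase (Acaca, Acacb) makes malonyl-CoA, fatty acid synthase (Fasn) builds the chain, and malic enzyme (Me1) is among the suppliers of the NADPH that it uses. Glycerol-3-phosphate acyltransferase (Gpam) and diacylglycerol acyltransferase (Dgat2) place fatty acids on glycerol to form triglyceride, and Pnpla3 encodes a lipid droplet protein. In the liver, insulin acts on these genes through SREBP-1c, a product of Srebf1, and carbohydrate through ChREBP, the product of Mlxipl. Glucagon is known as the hormone that opposes insulin in fasting, and one of its known actions in hepatocytes is to lower acetyl-CoA carboxylase activity and lipid synthesis.

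The upstream sequences of 5 of these genes are shown because they hold the letters TCACCC, the core of a sterol response element to which SREBP proteins are known to bind, and 4 of the 5 also hold CCAAT, the box bound by NF-Y, in the same window. Windows of 250 bases before the annotated start came from RefSeq, build GRCm38.p6, and 9 of the 10 genes had one. Both letter strings were searched on both strands and are printed in capitals, a match on the other strand as GGGTGA or ATTGG. They are listed 5′ to 3′ along the gene for Srebf1 at chr11:60210472-60210721 (minus strand), the window of 3 for this gene that holds TCACCC, for Fasn at chr11:120824548-120824797 (minus), for Pnpla3 at chr15:84167566-84167815 (plus), for Gpam at chr19:55127239-55127488 (minus) and for Me1 at chr9:86695915-86696164 (minus).
Srebf1: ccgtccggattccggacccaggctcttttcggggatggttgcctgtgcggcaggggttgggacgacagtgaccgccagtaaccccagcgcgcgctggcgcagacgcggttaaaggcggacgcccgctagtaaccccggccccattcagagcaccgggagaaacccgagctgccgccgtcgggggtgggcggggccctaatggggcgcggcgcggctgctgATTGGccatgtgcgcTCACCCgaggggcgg
Fasn: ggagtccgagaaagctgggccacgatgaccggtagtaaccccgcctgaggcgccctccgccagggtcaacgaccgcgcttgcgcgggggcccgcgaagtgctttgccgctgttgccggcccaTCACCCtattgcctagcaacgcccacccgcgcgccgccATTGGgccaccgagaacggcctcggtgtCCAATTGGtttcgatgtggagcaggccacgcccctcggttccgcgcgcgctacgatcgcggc
Pnpla3: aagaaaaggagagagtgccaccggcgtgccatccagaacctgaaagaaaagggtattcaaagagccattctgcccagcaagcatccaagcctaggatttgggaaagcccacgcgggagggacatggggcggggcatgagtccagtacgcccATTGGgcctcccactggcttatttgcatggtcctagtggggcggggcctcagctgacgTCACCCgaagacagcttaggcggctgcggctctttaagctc
Gpam: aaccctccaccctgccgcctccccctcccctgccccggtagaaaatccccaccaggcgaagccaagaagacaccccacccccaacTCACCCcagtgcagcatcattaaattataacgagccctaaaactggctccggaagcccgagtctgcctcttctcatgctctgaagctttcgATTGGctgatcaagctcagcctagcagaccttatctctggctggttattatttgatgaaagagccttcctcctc
Me1: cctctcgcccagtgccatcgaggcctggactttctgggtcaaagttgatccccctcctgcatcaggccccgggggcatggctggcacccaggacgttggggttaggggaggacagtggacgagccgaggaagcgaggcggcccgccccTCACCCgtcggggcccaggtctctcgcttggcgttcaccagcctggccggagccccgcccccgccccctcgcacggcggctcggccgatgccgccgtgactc
TCACCC began 15 bases before the start in Srebf1, 128 in Fasn, 41 in Pnpla3, 165 in Gpam and 102 in Me1. CCAAT occurred once in Srebf1, Pnpla3 and Gpam, and 3 times in Fasn, where the last match on each strand overlapped the other, and it was not in the Me1 window printed. TCACCC was found in 13.8% of the 32851 windows of all genes, CCAAT in 33.8%, and both in 4.26%. Those shares are per window, while the counts above are of genes, and the 9 genes had 14 windows, so the figures are not like for like. These letters are a description of the windows and were not tested against expression. The windows of Acaca, Acacb, Acly and Mlxipl held no TCACCC.

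Gcgr itself followed the labels, at 0.28 to 0.36 in KO livers and 7.74 to 8.14 in WT livers. Of 9 hepatocyte markers measured, none was below 5.60 in a KO liver or 5.63 in a WT liver, and Tat, a marker that encodes tyrosine aminotransferase, fell. The 10 arrays lay on 4 slides. Slide 1 held KO 1, KO 2, WT 1 and WT 2, slide 2 held KO 3 and KO 4, slide 3 held KO 5, WT 3 and WT 4, and slide 4 held WT 5. KO females and WT females therefore shared no slide, and in females slide and genotype cannot be told apart. The arrays of slides 1 and 2 were brighter, their net Cy5 medians running from 111.6 to 133.6, against 58.74 to 78.92 for slides 3 and 4. The main values are also given without KO 3 and KO 4, the only arrays of slide 2, a choice made after the data were seen. With slide as a fixed block, KO 3, KO 4 and WT 5 add nothing to the KO minus WT difference, since slides 2 and 4 each hold 1 genotype. That difference then comes from slides 1 and 3. On slide 1, KO 1 is compared with WT 1 and WT 2 within males, and KO 2 is the only female. On slide 3, KO 5 is male and WT 3 and WT 4 are female, so genotype and sex are parted there only by the model's sex term. The difference with slide as a block and that without KO 3 and KO 4 share most of their livers and are not separate checks.

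Of the 10 genes, 2 rose in KO livers and none fell (limma, genotype and sex in the model, adjusted p under 0.05 over all genes tested), namely Me1 and Acacb. Over all genes, 5.97% passed, 2.89% as higher and 3.08% as lower. Pnpla3 entered the fit through its KO arrays, since its probe was well above background in 5 KO livers and 1 WT liver, and it stands apart from the counts that follow. Among the other 9 genes, each well above background in at least 4 WT livers, the KO minus WT difference was above 0 for 6, with a median of 0.18 log2 units, against a median of -0.003 over all genes. Without KO 3 and KO 4 the median of the 9 was -0.02 and 2 passed, Me1 as higher and Acly as lower, where 2.28% of all genes passed. Me1 was also the one gene of the 10 with every KO liver above every WT liver, as 2.96% of all genes had, and the only one to pass in each of 27 fits, though it did not pass in females without KO 3 and KO 4.

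**Figure D1:**
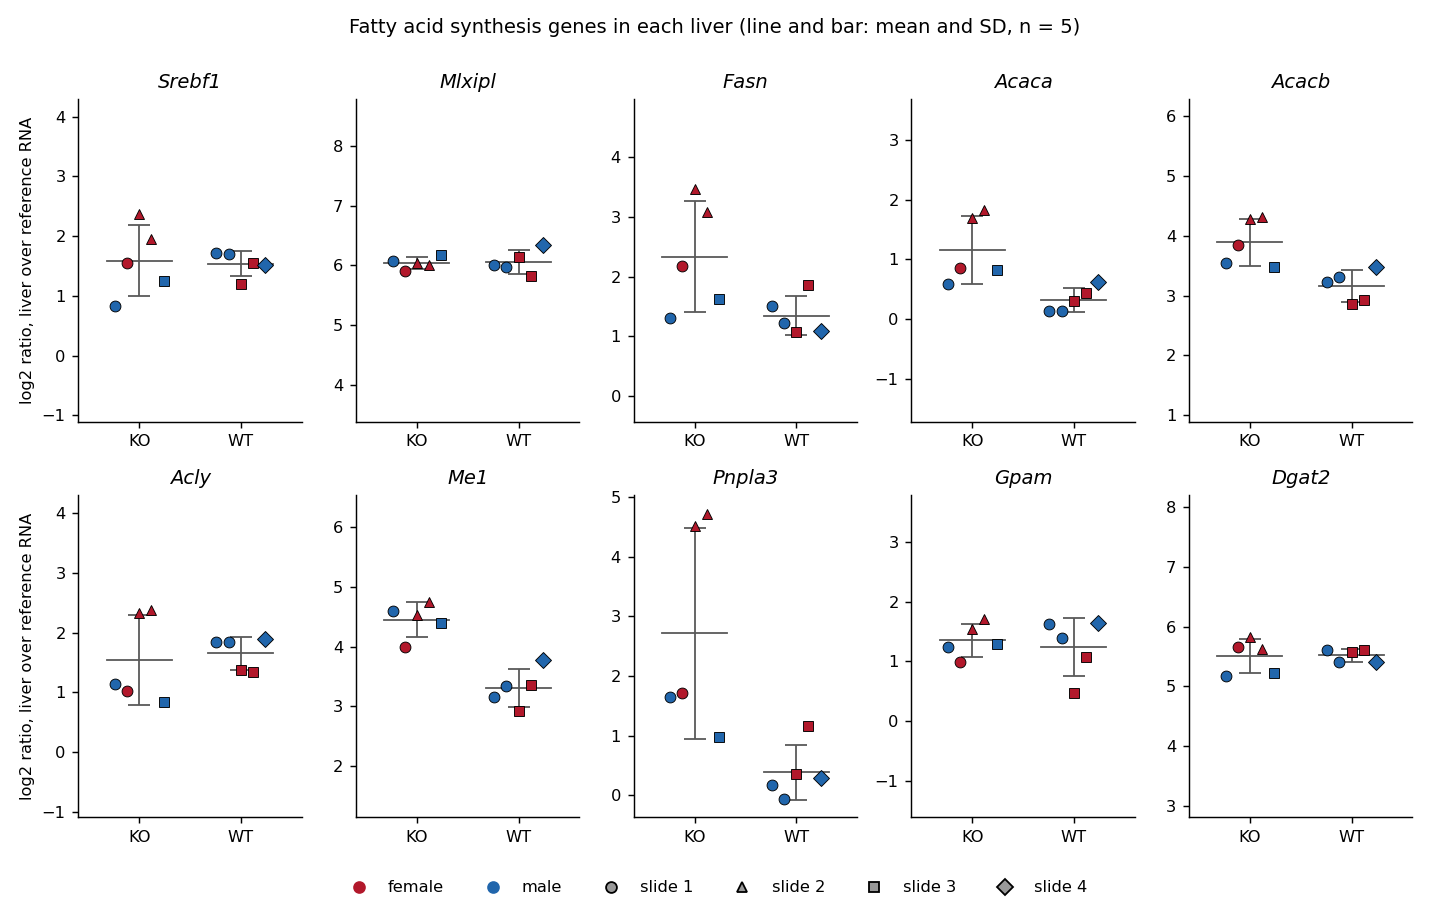
Log2 ratio of liver over reference RNA (vertical axis, each panel spanning the same number of log2 units) for the 10 genes in 5 KO livers, left, and 5 WT livers, right; colour gives sex, symbol gives slide, and the line and bar are mean and SD. KO 3 and KO 4, the triangles, were the highest livers for 6 of the 10 genes, among them Pnpla3, which was kept for its KO arrays. Me1 was the only gene whose KO and WT livers did not overlap.

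Me1, the cytosolic malic enzyme, stood higher in KO livers without overlap. Its log2 ratios were 4.59, 3.99, 4.52, 4.75 and 4.39 in KO livers 1 to 5, against 3.15, 3.34, 2.92, 3.35 and 3.78 in WT livers 1 to 5. The lowest KO liver, KO 2, lay above the highest WT liver, WT 5, and the livers of slide 2 did not stand apart from KO 1 or KO 5. The mean was 4.45 ± 0.29 in KO and 3.31 ± 0.32 in WT (SD, n = 5 each), a difference of 1.18 log2 units (SE 0.16), or 2.26-fold, with a limma adjusted p of 0.0022. The probe lies at chr9:86689778-86689837 (minus strand) in the coordinates of the array, build mm7, and a further probe at chr9:86685035-86685095 gave 1.20 (SE 0.16, adjusted p 0.0022 over all probes, of which 2.63% passed as higher; KO 2 had no value there). In the exact two-sided permutation test of the difference of means, 5 livers against 5, p was 0.0079, the smallest this design can give, and 0.13 after adjustment over all genes. No gene passed that test after adjustment, while 1130 passed with limma and 3949 of 18934 had an unadjusted limma p under 0.05.

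Of the carboxylase genes, Acacb rose and Acaca did not pass, and in both the dimmer probes gave smaller values. Acacb encodes the isoform that sits at mitochondria, where its malonyl-CoA is known to restrain fatty acid entry for oxidation. Its log2 ratios were 3.54, 3.85, 4.27, 4.32 and 3.48 in KO livers 1 to 5, against 3.22, 3.31, 2.86, 2.92 and 3.48 in WT livers 1 to 5. KO 5 and WT 5 were level, and every other KO liver lay above every WT liver. Acacb rose by 0.72 log2 units in KO (SE 0.19, 1.64-fold, limma adjusted p 0.048; exact permutation p 0.016). That call sat at the threshold. It remained without KO 5 (adjusted p 0.030) or without WT 5 (0.033), and without any 1 of the other 8 livers the adjusted p was 0.057 to 0.157. Without KO 3 and KO 4 the difference was 0.45 (adjusted p 0.18), and with slide as a block it was 0.50 (adjusted p 0.019), in a fit where 4 of the 9 genes other than Pnpla3 and 6.35% of all genes passed. A dimmer probe for Acacb, upstream at chr5:113406086-113410171 against chr5:113472402-113472462, gave 0.15 (adjusted p 0.50). Its net Cy5 signal was 43.05 to 127.3 over the livers, against 3923 to 17360 at the probe used. How far low signal sets the value at that dimmer probe was not tested.

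Acaca encodes the cytosolic carboxylase whose malonyl-CoA feeds chain synthesis. Its log2 ratios were 0.59, 0.86, 1.69, 1.83 and 0.82 in KO livers 1 to 5, against 0.13, 0.14, 0.30, 0.43 and 0.62 in WT livers 1 to 5. Only KO 1 lay within the WT range, just below WT 5. The difference of 0.75 log2 units (SE 0.20, 1.68-fold) had a limma adjusted p of 0.052 and an exact permutation p of 0.016. It was 0.55 with slide as a block, where it passed (adjusted p 0.0069), and 0.44 without KO 3 and KO 4 (adjusted p 0.12). The brightest Acaca probe, at chr11:84470765-84470824, was the one used, with a net Cy5 signal of 288.4 to 1514 over the livers. The other probes that passed the filter gave 0.21 (SE 0.07, adjusted p 0.094) at chr11:84363852-84364855 and -0.01 (SE 0.11, adjusted p 0.97) at chr11:84350405-84362820. Their net Cy5 signals were lower, at 33.08 to 131.3 and 84.43 to 320.6, and the part of low signal was not tested. A further probe was well above background in 2 of 5 KO and 0 of 5 WT livers. At the last of the probes with a value, females lay 0.45 below males (adjusted p 0.022 over all probes), and at the brightest they lay 0.41 above (adjusted p 0.24).

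**Figure D2:**
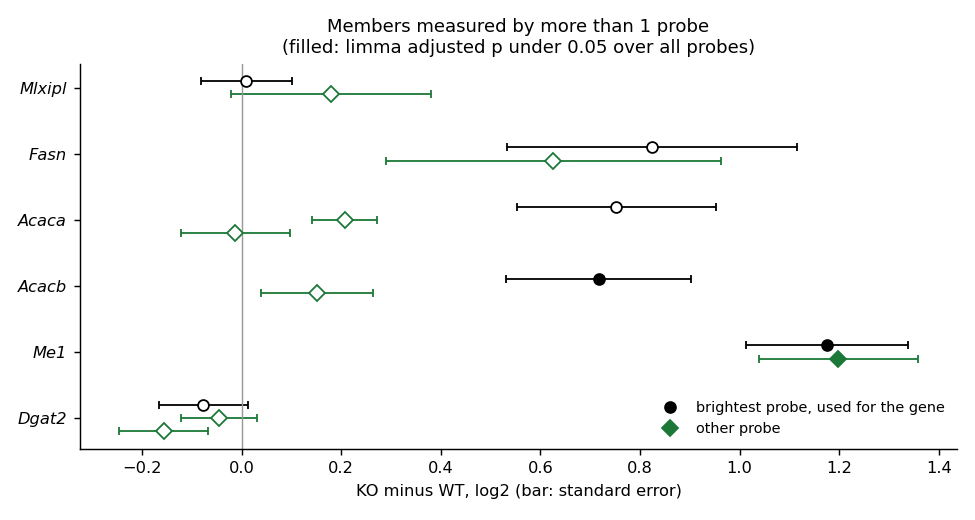
KO minus WT difference in log2 units with its standard error (horizontal axis) for each probe that passed the filter in the 6 genes with more than 1 such probe; circles are the brightest probe, diamonds the others, and filled symbols have an adjusted p under 0.05 over all probes. Both Me1 probes passed at about 1.2, while the Acacb and Acaca probes ranged from 0.72 to 0.15 and from 0.75 to -0.01, with the brightest probe highest in each.

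Fasn, the synthase itself, had a spread of 0.93 among KO livers and 0.33 among WT livers (SD, n = 5 each). Its log2 ratios were 1.30, 2.18, 3.47, 3.09 and 1.63 in KO livers 1 to 5, against 1.51, 1.23, 1.07, 1.86 and 1.09 in WT livers 1 to 5. The 3 KO females were above every WT liver, and the 2 KO males lay inside the WT range. The difference of 0.82 (SE 0.29, 1.77-fold) did not pass (limma adjusted p 0.13; exact permutation p 0.056), and a dimmer probe gave 0.63 (adjusted p 0.33). With slide as a block the difference was 0.33 (adjusted p 0.39), and without KO 3 and KO 4 it was 0.38 (adjusted p 0.38). The Fasn probes lie 267 and 268 kb from the Gcgr probe on chromosome 11 in the array's coordinates (build mm7). Linkage of flanking sequence to the targeted locus was not tested.

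Acly, the first step from citrate, split the KO livers. Its log2 ratios were 1.14, 1.02, 2.33, 2.37 and 0.84 in KO livers 1 to 5, against 1.84, 1.84, 1.38, 1.34 and 1.89 in WT livers 1 to 5. KO 3 and KO 4 were above all WT livers and the other 3 KO livers were below all of them. Over all 10 livers the difference was -0.16 (SE 0.30, limma adjusted p 0.83). With slide as a block Acly fell by 0.67 log2 units (SE 0.07, adjusted p 0.0012), and without KO 3 and KO 4 it fell by 0.67 (SE 0.12, adjusted p 0.024). Neither of these differences draws on KO 3 and KO 4, the highest livers for Acly. Leaving them out was chosen after the data were seen, so the call without them is a description. A further Acly probe was well above background in only 1 of 10 livers and was not tested.

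Pnpla3 showed the widest spread. Its log2 ratios were 1.65, 1.71, 4.51, 4.72 and 0.97 in KO livers 1 to 5, against 0.17, -0.06, 0.35, 1.16 and 0.30 in WT livers 1 to 5. All KO livers but KO 5 lay above all WT livers, and KO 5 lay above all WT livers but WT 4. Its probe passed the scanner's background test on 5 of 5 KO arrays and 1 of 5 WT arrays, so 4 of the 5 WT livers give only a bound and the size of the difference is not fixed. The probe was kept for its KO arrays, and a gene kept in that way is favoured to stand higher in KO, so no fold is given and the fitted values are a description. The mean was 2.71 ± 1.76 in KO and 0.39 ± 0.46 in WT (SD, n = 5 each). The fitted difference was 2.03 log2 units (SE 0.55) on 10 livers, 1.12 with slide as a block, 1.10 without KO 3 and KO 4 and 4.07 in the scanner's own log ratios.

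Neither of the regulators passed for genotype. Srebf1 was at 0.82, 1.56, 2.36, 1.96 and 1.25 in KO livers 1 to 5, against 1.72, 1.71, 1.20, 1.55 and 1.52 in WT livers 1 to 5. KO 3 and KO 4 were above all WT livers, KO 1 was below all of them, and the other KO livers lay within the WT range. The difference was -0.02 (SE 0.23, adjusted p 0.98) in limma's fit and -0.36 (SE 0.19, adjusted p 0.30) with slide as a block. Which Srebf1 transcript the probe reads, that of SREBP-1a or SREBP-1c, was not analysed here. Mlxipl ranged from 5.91 to 6.17 in KO livers and from 5.82 to 6.35 in WT livers, with a difference of 0.01 (SE 0.09, adjusted p 0.97), and its dimmer probe gave 0.18 (SE 0.20, adjusted p 0.69).

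The acyltransferases were near level. Gpam was at 1.24, 0.996, 1.54, 1.70 and 1.29 in KO livers 1 to 5, against 1.62, 1.39, 0.47, 1.07 and 1.64 in WT livers 1 to 5. The groups overlapped, with KO 4 highest and WT 3 lowest. The difference was 0.18 (SE 0.20, limma adjusted p 0.67). Dgat2 ranged from 5.18 to 5.83 in KO livers and from 5.40 to 5.61 in WT livers, and its 3 probes gave -0.08, -0.05 and -0.16 with adjusted p of at least 0.37. Dgat2 was the one gene of the 10 to differ by sex, higher in females than in males by 0.31 (SE 0.09, adjusted p 0.044), in a contrast where 11.6% of all genes passed. The adjusted p was 0.18 without KO 3 and KO 4 and 0.11 with slide as a block.

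**Figure D3:**
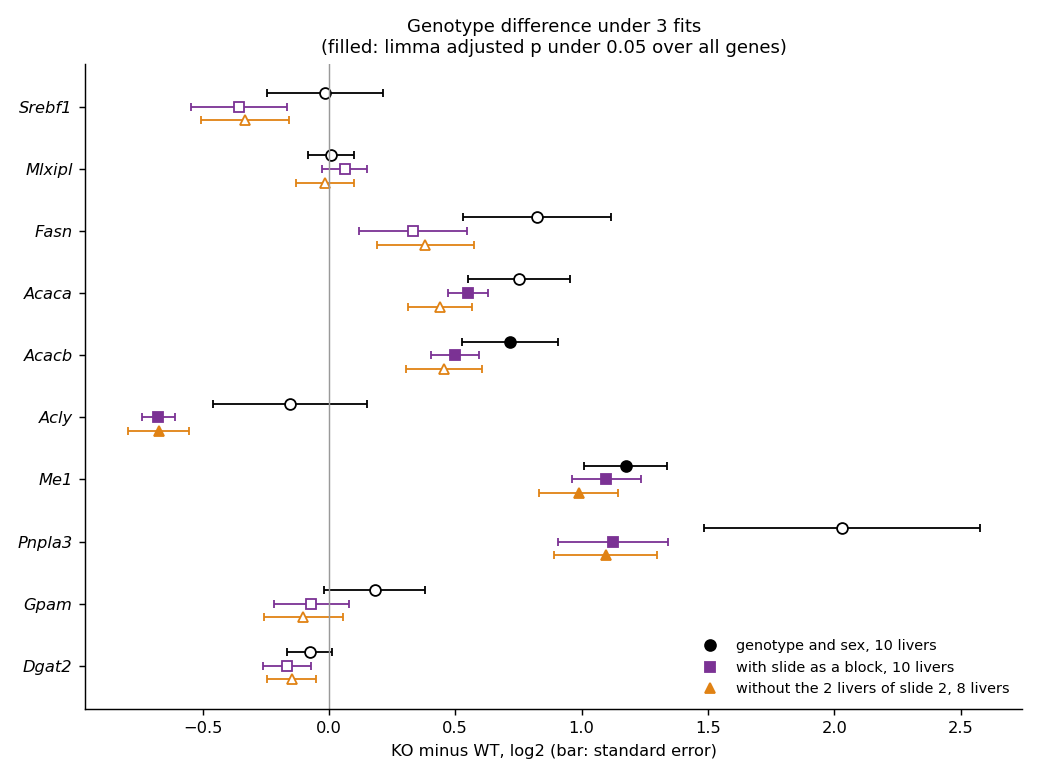
KO minus WT difference in log2 units with its standard error (horizontal axis) for the 10 genes under 3 limma fits, on 10 livers with sex, on 10 livers with sex and slide, and on the 8 livers outside slide 2; filled symbols have an adjusted p under 0.05 over all genes. Me1 stayed between 0.99 and 1.18 and passed in all 3, Pnpla3, whose WT level is a bound in 4 of 5 livers, was 2.03 on 10 livers and about 1.1 in the other fits, and Acly was -0.16, -0.67 and -0.67. In the fit with slide, the arrays of slides with 1 genotype add nothing to the difference, so it shares most of its livers with the fit on 8 livers.

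KO 3 and KO 4 were the 2 highest livers for 6 of the 10 genes, Srebf1, Fasn, Acaca, Acacb, Acly and Pnpla3. The same held for 6.75% of 18867 genes with a value in every liver. Pnpla3 was kept for its KO arrays, which favours high values in KO livers, so its place among the 6 is a description. The mean of KO 3 and KO 4 exceeded that of the other KO livers by 3.17 log2 units for Pnpla3, 1.58 for Fasn, 1.35 for Acly, 1.01 for Acaca, 0.95 for Srebf1 and 0.67 for Acacb. Against KO 2, the one other KO female, they were higher by 2.90 for Pnpla3, 1.33 for Acly, 1.10 for Fasn, 0.91 for Acaca, 0.60 for Srebf1 and 0.45 for Acacb. Both were female, both were on slide 2 and no WT liver was, and the part of the slide in these values cannot be told apart from that of the mice. On slide 1, between livers of 1 sex, KO 1 minus the mean of WT 1 and WT 2 was 1.34 for Me1, 0.45 for Acaca, 0.27 for Acacb, -0.06 for Fasn, -0.70 for Acly and -0.89 for Srebf1, from 1 KO liver and so with no test. Pnpla3 was not well above background in WT 1 or WT 2.

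By sex, 4 of the 9 genes other than Pnpla3 rose in KO females against WT females, and 1 rose in KO males against WT males. In females (3 KO, 2 WT) the KO minus WT difference was 1.45 for Fasn (SE 0.33, limma adjusted p 0.038), 1.28 for Me1 (SE 0.24, adjusted p 0.016), 1.26 for Acacb (SE 0.14, adjusted p 0.0013) and 1.10 for Acaca (SE 0.26, adjusted p 0.039), where 2.29% of all genes rose. Without KO 3 and KO 4, with KO 2 as the only KO female and assumed to vary like the other groups, it was 0.96 for Acacb (SE 0.15, adjusted p 0.043), the only 1 of the 10 to pass, where 0.196% of all genes rose. It was then 0.85 for Me1 (adjusted p 0.34), 0.72 for Fasn (adjusted p 0.52) and 0.49 for Acaca (adjusted p 0.55). In males (2 KO, 3 WT) Me1 rose by 1.07 (SE 0.24, adjusted p 0.045), where 1.2% of all genes rose. Pnpla3, with its WT level near background, was 2.89 in females and 1.17 in males. Srebf1 was 0.58 in females (adjusted p 0.16) and -0.62 in males (adjusted p 0.17), and Acly was 0.55 in females (adjusted p 0.38) and -0.86 in males (adjusted p 0.20). The female values without KO 3 and KO 4 were 0.18 for Srebf1 (adjusted p 0.87) and -0.33 for Acly (adjusted p 0.57).

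The difference between the sexes was itself tested and passed for none of the 10. It was above 0, with KO minus WT higher in females than in males, for 8 of the 9 genes other than Pnpla3. The share of all genes above 0 is not given here. For Srebf1, Acly, Gpam and Dgat2, KO minus WT was above 0 in females and below 0 in males. Unadjusted limma p was under 0.05 for 6 of the 9, while 2373 of all genes had such a p and 0.0317% passed after adjustment. The smallest adjusted p was that of Acacb, at 0.11 for a difference of 1.09 (SE 0.20). It was 1.20 for Srebf1 (adjusted p 0.21), 1.42 for Acly (0.28), 0.93 for Gpam (0.28) and 1.26 for Fasn (0.34). All of these contrasts set KO females of slides 1 and 2 against WT females of slide 3. With KO 3 and KO 4 left out it was 0.79 for Acacb (SE 0.19, adjusted p 0.60), 0.80 for Srebf1 (0.84), 0.53 for Acly (0.85), 0.51 for Gpam (0.86) and 0.52 for Fasn (0.88). With slide as a block the difference for Pnpla3 was -1.31 in place of 1.71, and for Me1 -0.69 in place of 0.22, each with an adjusted p of at least 0.89.

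**Figure D4:**
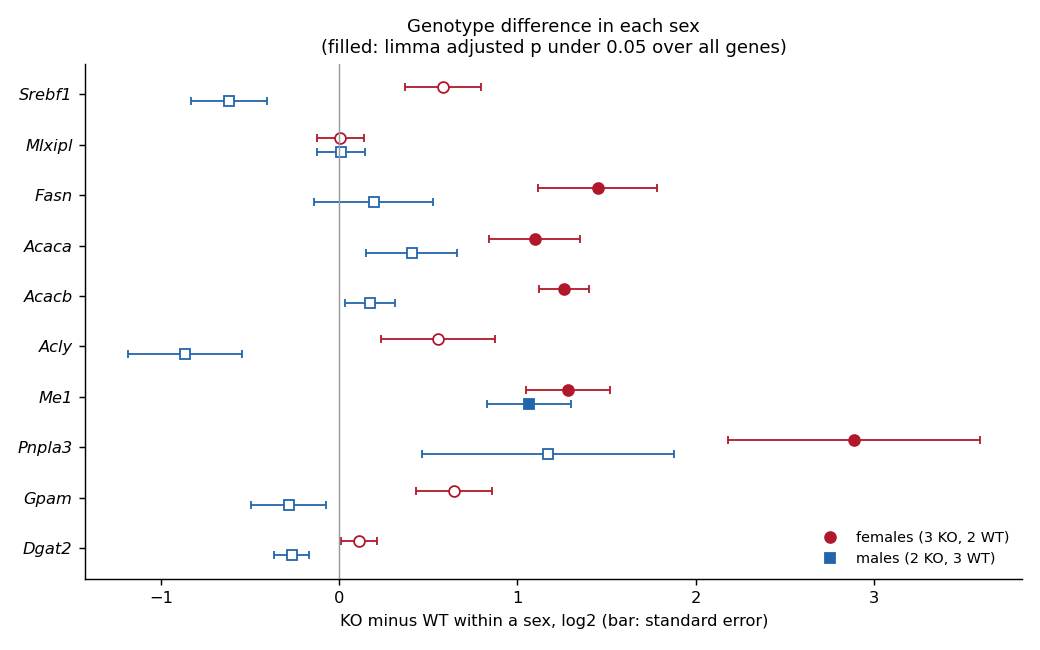
KO minus WT difference in log2 units with its standard error (horizontal axis) within females, circles, and within males, squares, for the 10 genes; filled symbols have an adjusted p under 0.05 over all genes. Fasn, Me1, Acacb and Acaca were filled in females and Me1 in males, as was Pnpla3 in females, whose WT level is near background, and KO and WT females lay on different slides.

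The neighbouring steps of the pathway were followed in 8 lists holding 129 genes, of which 124 were measured. Of these, 9 rose and 5 fell, or 11.3%, where 5.97% of all genes passed, and their median difference was 0.03 log2 units. Without KO 3 and KO 4, 7 of the 124 passed, where 2.28% of all genes did, and Scd1, Fads2, Crat, Tkt, Acsl4 and Mlx were among the 7. Among enzymes that lengthen and desaturate the chain, 2 of 17 rose and 1 fell. Scd1, the desaturase that makes oleate from stearate, was at 5.65, 5.16, 5.64, 5.88 and 5.79 in KO livers 1 to 5, against 4.70, 4.17, 3.81, 4.64 and 4.86 in WT livers 1 to 5. Every KO liver lay above every WT liver. Scd1 rose by 1.24 (SE 0.19, 2.36-fold, limma adjusted p 0.0038). It passed in all 24 alternative fits over both sexes, among them that without KO 3 and KO 4 (1.07). Within a sex Scd1 was 1.33 in females (adjusted p 0.026) and 1.14 in males, where it did not pass (adjusted p 0.060). Hacd2, a dehydratase of the elongation cycle, rose by 0.40 (adjusted p 0.041), and Fads2, the desaturase of polyunsaturated fatty acids, fell by 0.73 (SE 0.13, adjusted p 0.0071). Elovl6, which lengthens palmitate, was at 2.25, 2.88, 4.33, 4.70 and 2.49 in KO livers 1 to 5, against 1.74, 1.67, 2.37, 2.52 and 2.19 in WT livers 1 to 5, highest in the livers of slide 2. Its difference of 1.01 had an adjusted p of 0.090, and with slide as a block it was 0.59 (adjusted p 0.014).

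The list of ChREBP partners and carbohydrate-responsive genes had 3 that rose and 2 that fell of 13 measured, with a median of 0.25. Of all genes, 2.89% rose and 3.08% fell. Pklr, liver pyruvate kinase, rose by 0.85 (SE 0.20, adjusted p 0.030), Slc2a2, the glucose carrier GLUT2, by 0.67 (SE 0.13, adjusted p 0.011), and Khk, ketohexokinase, which phosphorylates fructose, by 0.52 (SE 0.14, adjusted p 0.047). Each of these 3 had every KO liver above every WT liver, as 2.96% of all genes had. Mlx, the partner with which ChREBP binds DNA, fell by 0.29 (adjusted p 0.041) at 1 probe and gave -0.05 (adjusted p 0.78) at its other, and G6pc, glucose-6-phosphatase, fell by 0.37 (adjusted p 0.037). Thrsp, a lipogenic gene that answers to carbohydrate and thyroid hormone, gave -0.08 (adjusted p 0.63). Without KO 3 and KO 4, Pklr was 0.58 (adjusted p 0.12), Slc2a2 0.52 (adjusted p 0.060), Khk 0.35 (adjusted p 0.21) and G6pc -0.37 (adjusted p 0.16).

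Genes of NADPH supply held 1 that rose and 1 that fell of 13. Tkt, transketolase of the pentose phosphate pathway, rose by 0.76 (SE 0.18, adjusted p 0.034) at its brightest probe and gave 0.12 (adjusted p 0.41) at the other, while Mthfd1, a folate enzyme that can yield NADPH, fell by 0.45 (adjusted p 0.010), with -0.31 (adjusted p 0.11) at its other probe. Of 10 genes of acetyl-CoA and malonyl-CoA supply, Crat, carnitine acetyltransferase, rose by 0.73 (SE 0.14, adjusted p 0.013) and no other passed. Of 24 genes of triglyceride and phospholipid assembly, Acsl4, an acyl-CoA synthetase that prefers arachidonate, fell by 0.57 (adjusted p 0.0058; WT 5 had no value), with -0.19 (adjusted p 0.50) at its other probe.

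Of 18 genes of SREBP processing and LXR, Mbtps1, the site-1 protease that cuts SREBP precursors, rose by 0.35 (adjusted p 0.018) at its brightest probe, and its other probes gave 0.18 and 0.02 without passing. Insig1, which holds SREBP precursors in the endoplasmic reticulum, gave -0.33 (adjusted p 0.37), and with slide as a block it fell by 0.67 (adjusted p 0.010). Nr1h3, the receptor LXR-alpha, gave -0.12 (adjusted p 0.46). Of 12 genes acting on acetyl-CoA carboxylase, Prkaa1, a catalytic subunit of AMP-activated kinase, rose by 0.30 (adjusted p 0.024) at its brightest probe and gave 0.09 (adjusted p 0.55) at the other. Of 18 genes of insulin signalling to lipid synthesis, none passed, and the widest difference was that of Lpin1, a phosphatidate phosphatase and nuclear co-regulator, at -0.64 (SE 0.39, adjusted p 0.40).

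**Figure D5:**
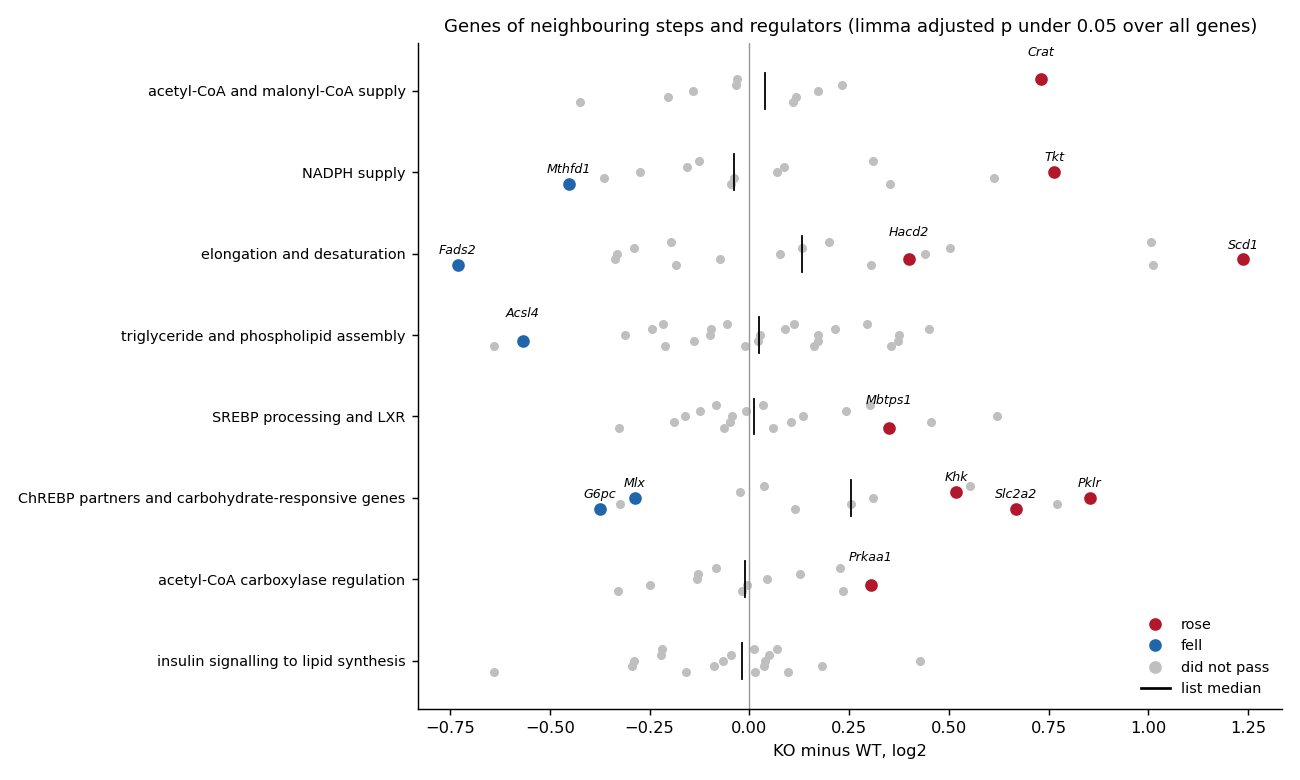
KO minus WT difference in log2 units (horizontal axis) for each measured gene of 8 lists around fatty acid synthesis; red genes rose and blue genes fell with an adjusted p under 0.05 over all genes, grey genes did not pass, and the bar is the list's median. Scd1 stood farthest to the right at 1.24 and Fads2 farthest to the left among those that passed, at -0.73, and the list medians lay between -0.04 and 0.25.

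By Pearson correlation of log2 ratios over the 10 livers, a description that the livers of slide 2 weigh on, the genes most like Fasn were Mnt (r = 0.953), Slc2a4 (0.949) and G6pdx (0.949), among 18866 genes. Those most like Pnpla3 were a probe with no gene symbol (0.974), Elovl6 (0.971) and Lrp2bp (0.962). Among those most like Srebf1 were Loxl4 (0.916) and Kcng4 (0.899), and those most like Mlxipl were a transcript with no symbol (0.971), Srsf9 (0.958) and Atg2a (0.942).

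Several of these enzymes are also made in fat cells, and adipocyte markers were set beside them. Of 11 adipocyte markers 9 were measured, and Adipoq and Lep, which did not pass the filter, were well above background in 0 of 5 KO livers each and in 0 and 2 of 5 WT livers. The summed ratio of the 9 was 45.9 to 238 in KO livers and 49.3 to 63.9 in WT livers. Cidec, a lipid droplet gene, rose by 1.40 (adjusted p 0.037), at 3.99 in KO 1 and 3.21 in KO 5 and at most 1.46 in the other livers, and Cfd, the fat cell protease adipsin, was 7.22 in KO 1 and 5.56 in KO 5 and at most 1.31 elsewhere. These were the 2 KO males, which were also the 2 lowest KO livers for 6 of the 10 genes and not for Mlxipl, Acly, Me1 or Gpam. Pnpla3, which was kept for its KO arrays, is among the 6. The share of all genes for which this held is not given here, so the count is only a description. The part of the adipocyte markers in the values of the 10 genes was not tested. Plin1, the perilipin of fat cells, ranged from -0.20 to 0.13 in KO livers and from -0.03 to 0.28 in WT livers. Of 8 endothelial markers 2 rose, where 2.89% of all genes did, Lyve1 by 1.47 (adjusted p 0.0068) and Pecam1 by 0.26 (adjusted p 0.046). The summed ratio of the 8 was 138.4 to 163.5 in KO livers and 90.1 to 139 in WT livers, and their part was likewise not tested.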

How the data were processed

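Liver RNA labelled with Cy5 was hybridised with Cy3-labelled Stratagene universal mouse reference on 10 Agilent arrays, without dye swaps, per the labels' protocols. Arrays were read with Agilent Feature Extraction 10.7, per the submitters' processing notes. Mean spot and local background signals were deposited as intensity values with no background or dye correction, per the file headers. The LogRatio column, again per the file headers, is the scanner's log10 of processed Cy5 over Cy3. Values in the authors' deposited series table are log2 ratios, as its values showed against each array (r 0.9994 to 0.9996, column medians 0.00776 to 0.023). How that table was normalised is not stated there.

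The 169 to 291 spots an array that the scanner had marked as outliers were dropped first, an order chosen after the data were seen. With these spots kept through the background fit and dropped after it, the 5th percentile of corrected Cy3 signal in WT 5 was 377.1, against 62.57 with them dropped first, while in WT 1, the array with the next widest gap, it was 62.74 against 62.63. Signals were then corrected by normexp (offset 50) and loess within array, and spots were averaged per probe. A probe was kept where its Cy5 signal was well above background on 4 or more of the 10 arrays, and the brightest probe stood for a gene (18934 genes, 67 with a missing value). Models in limma 3.58.1 (R 4.3.3) held genotype and sex, with an interaction model for effects within a sex, and Benjamini-Hochberg adjustment over all genes at a threshold of 0.05. A gene past it is said to have risen or fallen. The number of arrays limits the precision. Symbols came from RefSeq (GRCm38.p6), and array coordinates are of build mm7. Slides were read from the file headers. The members and lists were chosen with earlier results of these data known. Named were all 10 genes at every probe kept, Gcgr, up to 6 genes that passed per list (or the widest difference if none did), 8 fixed pathway genes, and the 3 genes most like each of 4 members, of which 1 is not reported here.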

Additional observations from a re-analysis of the deposited data

How the results depend on the processing

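Me1 was higher in KO and past the threshold under 26 alternatives with a test, though not in females without both livers on slide 2. Acacb lost its call under 18 of them and Dgat2 its sex difference under 15 of 23, while Acaca passed under 6, Acly (lower) under 2 and Fasn under 1. Pnpla3, which was kept for its KO arrays, passed under 8. Leaving out both livers on slide 2, also within females, was chosen after the data were seen, and the other alternatives were listed earlier. Of the 10 genes, 1 passed for genotype with median centring, with outlier spots left out after normexp, with no filter on dim probes, with the mean of a gene's probes, with slides 1 and 2 against 3 and 4 as a block, with no sex term and with the replicate block, while 5 passed with slide as a fixed block and 4 with slide as a random block. Leaving out each liver in turn gave 1 to 3. These counts include Pnpla3 in both slide blocks and without KO 2 or KO 5, and Acly, as lower, in the fixed block. Over all genes, 1203 (6.35%) passed with slide as a fixed block and 1569 with slide as a random block. There were 980 of 27670 with no filter on dim probes, 1129 with the mean of a gene's probes and 1245 with slides 1 and 2 against 3 and 4. Of all genes, 1130 passed, against 281 with median centring (72.2% of them higher, against 48.4%), 341 with outlier spots left out after normexp, 618 with no sex term, 304 with the replicate block and 431 without both livers on slide 2. Leaving out 1 liver gave 593 (without WT 3) to 1183 (without WT 5), with 600 without KO 1 and 668 without KO 4. In the pathway lists 14 passed, against 2 with median centring, 5 with outlier spots left out after normexp and 9 with no sex term. The lists had 1 with the replicate block, 7 without both livers on slide 2, and 6 to 15 with 1 liver left out. The cause of these changes was not tested.

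Differences near 0 changed sign. The KO minus WT difference of Srebf1 was 0.0096 with median centring, 0.032 with outlier spots left out after normexp, 0.049 with no sex term, 0.10 with the replicate block and 0.58 in females alone. That of Mlxipl was -0.070 with the scanner LogRatio, -0.018 with no sex term, -0.0070 with the replicate block and -0.017 without both livers on slide 2. That of Acly was 0.062 with the replicate block and 0.55 in females alone, that of Gpam -0.069 with slide as a fixed block, -0.10 without both livers on slide 2 and -0.28 in males alone, and that of Dgat2 0.11 in females alone. With 1 liver left out the ranges were -0.22 to 0.20 for Srebf1, -0.052 to 0.070 for Mlxipl, -0.33 to 0.067 for Acly and -0.042 to 0.30 for Gpam.

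Only the livers of replicate number 2, KO 2 and WT 2, differ in sex, so with the replicate block they alone give the female minus male difference. It was -0.25 for Srebf1 (SE 0.64), -0.041 for Fasn (SE 0.79), -0.14 for Acaca (SE 0.47), -0.24 for Acacb (SE 0.54), -0.87 for Acly (SE 0.78) and -0.70 for Pnpla3 (SE 1.17). With the mean of all probes it was 0.011 for Mlxipl, -0.017 for Acaca and 0.030 for Me1, and with outlier spots left out after normexp 0.027 for Mlxipl. It was -0.17 for Acacb and -0.31 for Acly without both livers on slide 2, -0.14 for Acly with slide as a fixed block, and with 1 liver left out -0.042 to 0.23 for Acacb and -0.011 to 0.38 for Acly. The difference between the sexes in the KO effect was -0.69 for Me1 and -1.31 for Pnpla3 with slide as a fixed block, and both were -0.22 without both livers on slide 2. In females without those livers the KO minus WT difference was -0.066 for Mlxipl and -0.33 for Acly, and the calls of Fasn, Acaca, Me1 and Pnpla3 were lost.

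Livers with the same replicate number had correlations of their deviations from the group means of 0.536, -0.432, 0.441, 0.512 and 0.228 for numbers 1 to 5, and of -0.219, 0.251, -0.305, -0.277 and -0.16 once sex was taken out. The livers of number 2 differ in sex and those of the other numbers share it. Since not every correlation was above 0.1, the numbers were not taken as pairs. Pnpla3 has no value in the fit on probes well above background on all 10 arrays, and its WT values are limited by signal over background.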
